A study of Mus musculus with 14 samples.

Results

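Across 11 mouse cell lines, 10 genes that mark B lymphocytes and plasma cells were followed: Irf4, Prdm1, Xbp1, Pou2af1, Mef2b, Blnk, Ms4a1, Tnfrsf13b, Sdc1 and St6gal1. The 10 genes were selected on their measured difference between a myeloma line and the other lines on these same arrays, so their values in that contrast are a description and carry no test. The platform's probe annotation held 12 probes for them, of 7680 probes in all, 1 for each gene except St6gal1, which had 3. All 12 probes were measured on all 14 arrays. Every array carried total RNA of a single cell line in the Cy5 channel and a commercial RNA pool, the Stratagene mouse reference, in the Cy3 channel, with no dye swap. The reference label of mammary tumor array 1 is worded differently from the rest. The lines were named mammary tumor, fibroblast and myeloma (2 arrays each) and macrophage, T-cell lymphoma, liver, testis, kidney, skin, myoblast and embryo fibroblast (1 array each). The labels give no treatment, age, strain or genotype, no further name of any line and do not say if repeat arrays had separate cultures behind them. The p-values therefore rest on array-to-array spread alone, and that spread may be technical. A line with 1 array has no replicate check of its own.

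B lymphocytes carry a surface antigen receptor, signal through kinases and adaptors, and on activation can mature into plasma cells, which secrete antibody at a high rate. A network of transcription factors keeps these states apart. Irf4, Blimp-1 (encoded by Prdm1) and Xbp1 serve the plasma cell, while Pou2af1, a coactivator that binds to octamer-binding Oct factors on DNA, and Mef2b serve activated B cells. A myeloma is a tumor of plasma cells, and mouse myeloma lines are a standard source of this cell type's RNA.

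The octamer, the DNA element at which Oct factors recruit the Pou2af1 protein, was searched in the RefSeq promoters of the members (GRCm38.p6 build, 250 bases before to 50 bases after a start site) because Pou2af1 itself is among the genes high in the myeloma line. Of the 10 genes 9 were in that table, with 11 promoters, 3 of them of St6gal1. ATGCAAAT, read on both strands, was found in 2 of the 11 (those of Mef2b and Blnk) and in 570 of 32851 promoters of the table (1.74%). The promoters of Irf4, the gene with the widest myeloma difference of the 10, and of Pou2af1 itself do not hold these letters and are printed as examples. Capitals mark the octamer, which starts 85 bases before the Mef2b start site on the sense strand and 130 bases before the Blnk start site on the antisense strand. The Mef2b window is chr8:70152511-70152810 (plus strand) and the Blnk window chr19:40994172-40994471 (minus strand). The Irf4 window is chr13:30748983-30749282 (plus strand) and the Pou2af1 window chr9:51213440-51213739 (plus strand).
Mef2b: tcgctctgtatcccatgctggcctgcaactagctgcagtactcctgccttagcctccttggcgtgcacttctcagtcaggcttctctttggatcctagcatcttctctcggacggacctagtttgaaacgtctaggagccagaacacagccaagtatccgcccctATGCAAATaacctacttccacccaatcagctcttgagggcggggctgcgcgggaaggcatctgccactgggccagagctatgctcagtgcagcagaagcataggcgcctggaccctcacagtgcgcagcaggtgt
Blnk: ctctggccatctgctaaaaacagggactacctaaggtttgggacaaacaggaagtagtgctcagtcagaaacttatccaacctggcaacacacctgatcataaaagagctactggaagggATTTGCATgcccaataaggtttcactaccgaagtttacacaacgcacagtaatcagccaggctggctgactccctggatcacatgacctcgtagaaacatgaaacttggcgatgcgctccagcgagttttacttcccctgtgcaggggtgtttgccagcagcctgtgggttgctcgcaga
Irf4: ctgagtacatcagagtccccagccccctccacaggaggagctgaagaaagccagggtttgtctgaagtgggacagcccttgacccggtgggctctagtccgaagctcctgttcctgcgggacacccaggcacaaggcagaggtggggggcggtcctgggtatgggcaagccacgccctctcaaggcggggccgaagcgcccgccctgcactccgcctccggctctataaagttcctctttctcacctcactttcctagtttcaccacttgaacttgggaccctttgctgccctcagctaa
Pou2af1: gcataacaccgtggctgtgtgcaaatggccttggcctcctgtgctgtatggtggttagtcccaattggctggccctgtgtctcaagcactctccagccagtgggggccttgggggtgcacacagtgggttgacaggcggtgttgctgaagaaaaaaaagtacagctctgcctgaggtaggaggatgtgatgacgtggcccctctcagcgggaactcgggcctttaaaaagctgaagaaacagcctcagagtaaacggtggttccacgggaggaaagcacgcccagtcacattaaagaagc

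Other elements tied to these factors were searched in the same windows. With 11 promoters these counts, and that of the octamer, are descriptions and are not read as differences from all promoters. GGAANNGAA, the composite element of ETS and IRF factors, was in 0 of the 11 promoters and in 8.24% of all. GAAANNGAA, an interferon-type core, was in 0 and in 8.56%, and the E-box CACGTG in 0 and in 7.15%. CCACG, the core of Xbp1 and Atf6 sites, was in 5 of 11 promoters (Irf4, Prdm1, Pou2af1, Sdc1 and 1 of St6gal1) and in 32.8% of all. GGAANNGAA and GAAANNGAA can overlap. A match describes the letters of the window and shows no binding, and a missing match says only that the letters are not in it.

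All values are log2 ratios of line over pool, so 0 is the level of the pool and a difference of 1 is a doubling. Base 2 and this direction were judged from the values, and folds and shares rest on them. The array medians lay between -0.508 (embryo fibroblast) and 0.124 (skin), with kidney at -0.406. Spot intensities were not analysed here, so a low ratio may lie near background. Listed macrophage markers were highest in the macrophage line for 10 of 13 genes and listed T-cell markers in the T-cell lymphoma line for 5 of 11. Of 9 B and plasma cell markers outside the members 3 were highest in the myeloma line, where their median log2 ratio was 0.28. No listed fibroblast marker (0 of 11) was above the pool in the myeloma line, while epithelial markers were highest there for 6 of 13 genes, with a median of 0.59 and a range from -2.74 to 2.37. The part of these epithelial markers in the results was not tested.

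The transcription regulators were well above the pool on both myeloma arrays and below it in nearly every other line. Irf4, an interferon regulatory factor without which plasma cells do not form, had log2 ratios of 3.01 and 2.97 on the 2 myeloma arrays. On the 12 arrays of other lines it ran from -3.77 to -0.98, with a median of -2.87. The groups lay 3.94 apart at their nearest points, and the mean difference was 5.67 ± 0.61 (SE, 50.9-fold). Its other-line values were uneven between repeat arrays, with a gap of 2.18 between the mammary tumor arrays, so the order of the other lines is not resolved for this probe.

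Pou2af1 had values of 2.39 and 2.48 in the myeloma line and ran from -5.29 to -0.67, with a median of -2.08, elsewhere. The mean difference was 4.91 ± 0.35 (SE, 30.0-fold). It spread widely among the other lines, from -5.29 in the kidney line and -4.45 in the embryo fibroblast line up to -0.70 in the liver line. Mef2b, a MADS-box transcription factor of germinal centre B cells, had values of 1.82 and 2.69 against a range from -3.32 to -1.23 and a median of -2.25. The difference was 4.31 ± 0.32 (SE, 19.8-fold). For both genes every other array was below the pool.

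Xbp1, the transcription factor that widens the secretory apparatus, had values of 2.15 and 2.60 in the myeloma line. The other arrays were close together, from -2.16 to -0.31 with a median of -0.77, and the difference was 3.32 ± 0.32 (SE, 10.0-fold). The SD over the 10 other lines was 0.54, and the kidney line alone was below -1.5. Prdm1, the repressor that ends the B-cell programme, was 1.39 and 1.76 in the myeloma line and ran from -2.49 to 0.56, with a median of -1.06, elsewhere. The difference was 2.60 ± 0.34 (SE, 6.05-fold). The testis line was nearest, at 0.56, a gap of 1.02 from the myeloma mean, against a residual SD of 0.46 between repeat arrays of this probe. The 2 fibroblast arrays lay 1.03 apart on it, and the testis line had 1 array.

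**Figure D1:**
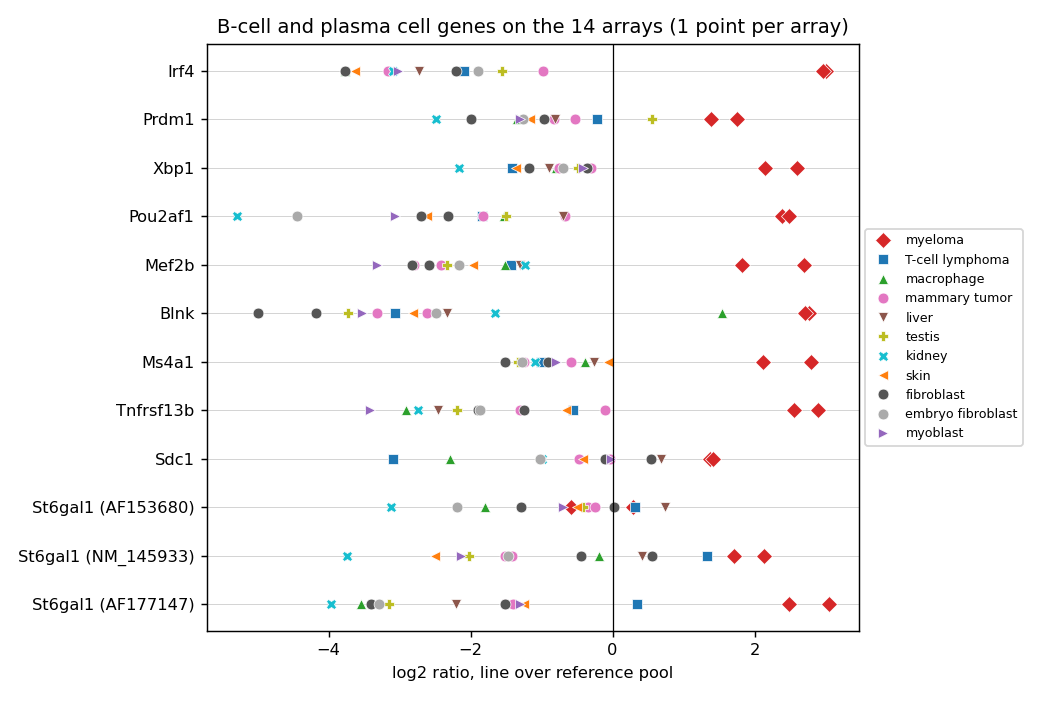
Log2 ratio of line over pool (horizontal axis) for the 12 probes (vertical axis), 1 point per array and 1 colour and symbol per line. Both myeloma arrays lie to the right of every other array for 11 of 12 probes, and the exception is the St6gal1 probe AF153680.

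Of the receptors and surface proteins, Ms4a1 (CD20, a membrane protein of B cells that plasma cells usually lack) had log2 ratios of 2.12 and 2.79 in the myeloma line. The other arrays ran from -1.52 to -0.07 with a median of -0.96. The difference was 3.29 ± 0.34 (SE, 9.77-fold), and the other lines were the most alike of all 12 probes (SD 0.45). Tnfrsf13b, which encodes TACI, a receptor for the survival factors BAFF and APRIL, had values of 2.89 and 2.55 against a range from -3.41 to -0.10 and a median of -1.88. The difference was 4.63 ± 0.38 (SE, 24.7-fold). Neither gene overlapped between the myeloma arrays and the rest.

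Sdc1 (syndecan-1 or CD138, a heparan sulfate proteoglycan of plasma cells and of epithelia) was the least separated of the genes with a single probe. It was 1.38 and 1.41 on the myeloma arrays and ran from -3.09 to 0.68, with a median of -0.44, elsewhere. The difference was 2.21 ± 0.29 (SE, 4.64-fold). The liver line (0.68) and the fibroblast line (mean 0.22) were also above the pool, and the liver line lay 0.72 below the myeloma mean against a residual SD of 0.32.

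Blnk, the adaptor that links the kinase Syk to its effectors behind the B-cell receptor, had values of 2.77 and 2.71 in the myeloma line. On the other arrays it ran from -4.99 to 1.54 with a median of -2.94. The difference was 5.31 ± 0.33 (SE, 39.6-fold). The macrophage line, at 1.54, was the lone line besides myeloma above the pool, and the next, the kidney line, was at -1.66.

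St6gal1, the enzyme that adds terminal sialic acid to galactose on glycoproteins, gave a different answer with each probe. The probe of AF177147 was 2.48 and 3.05 on the myeloma arrays and ran from -3.96 to 0.34 (median -1.87) elsewhere, a difference of 4.99 ± 0.48 (SE, 31.8-fold). The probe of NM_145933 was 1.71 and 2.14 and ran from -3.74 to 1.33 (median -1.44), a difference of 3.09 ± 0.33 (SE, 8.52-fold). The probe of AF153680 was -0.59 and 0.29 and ran from -3.12 to 0.74 (median -0.46), a difference of 0.71 ± 0.41 (SE, 1.64-fold), and the groups overlapped. Over the 11 lines the probes correlated with each other at Pearson r = 0.60 (AF153680 and NM_145933), 0.60 (AF153680 and AF177147) and 0.65 (NM_145933 and AF177147). Without the myeloma line these were 0.60, 0.72 and 0.44, all as descriptions over line means that share arrays. RefSeq lists 3 start sites for this gene, and which transcripts each probe detects was not analysed here.

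**Figure D2:**
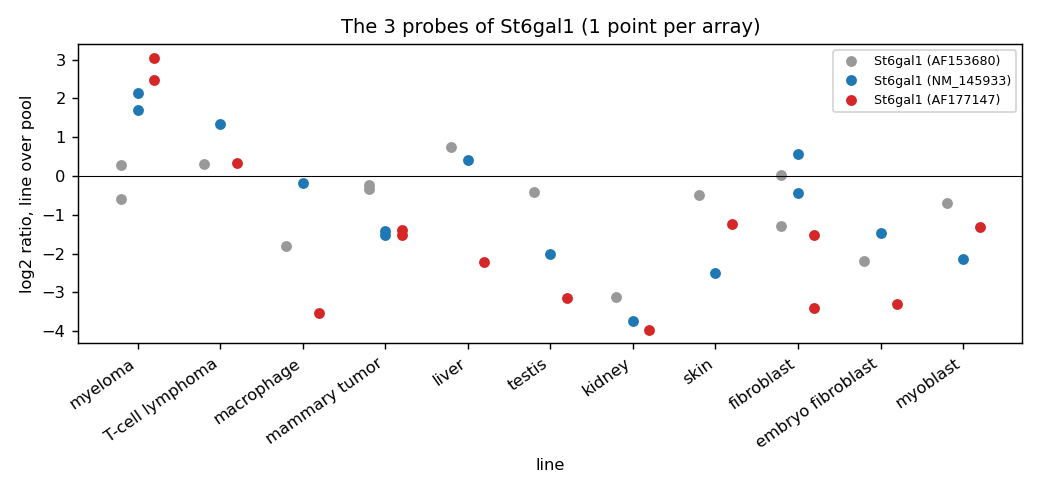
Log2 ratio over the pool (vertical axis) for the 3 probes of St6gal1 in each line (horizontal axis), 1 point per array. In the myeloma line the probes part, with AF153680 at -0.59 and 0.29 and AF177147 at 2.48 and 3.05, while in the kidney line all 3 lie between -3.96 and -3.12.

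Both myeloma arrays lay above every other array for 11 of the 12 probes, as they did for 366 of the 7282 features measured on all arrays. The median difference was 3.82 over the 12 probes and 0.11 over all 7423 tested features. The same 11 probes passed limma's threshold in this contrast, where 6.70% of all features were called, 3.29% as higher. This contrast chose the genes, so nothing is read from that count. The myeloma arrays shared a run of image numbers with the testis, liver and macrophage arrays and fibroblast array 2. Against those 4 arrays alone the differences were 1.92 to 5.55 for the 11 probes and 0.21 for the St6gal1 probe of AF153680. On that probe the run as a random block gave 0.40, and for the other 11 probes it gave 2.07 to 5.48. Array 2 was the higher of the myeloma arrays for 9 of 12 probes, by a median of 0.40 over the 12, against -0.07 over all features.

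The series title asks what single lines contribute to the pool. The unlogged ratio of a line divided by the sum over the 11 lines gives its share of a probe's signal if the lines were pooled in equal parts, when each would hold 9.09%. The myeloma share was 81.9% for Irf4, 67.9% for Pou2af1, 67.8% for the AF177147 probe of St6gal1, 66.5% for Tnfrsf13b, 64.3% for Mef2b and 61.5% for Blnk. It was 48.6% for Xbp1, 48.3% for Ms4a1, 34.3% for Prdm1 and 26.9% for Sdc1. For the other probes of St6gal1 it was 34.4% (NM_145933) and 11.3% (AF153680). The median over the 12 probes was 55.1%, against 8.90% over all tested features, and 6 of the 12 passed 50%, as did 36 of 7423 features (0.485%). Blnk drew a further 26.6% from the macrophage line, Prdm1 16.9% from the testis line and Sdc1 16.3% from the liver line. The NM_145933 probe of St6gal1 drew 22.8% from the T-cell lymphoma line. On the AF153680 probe the liver line (21%) and the T-cell lymphoma line (15.6%) held more than myeloma. No error was attached to these shares, since 8 lines had 1 array.

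**Figure D3:**
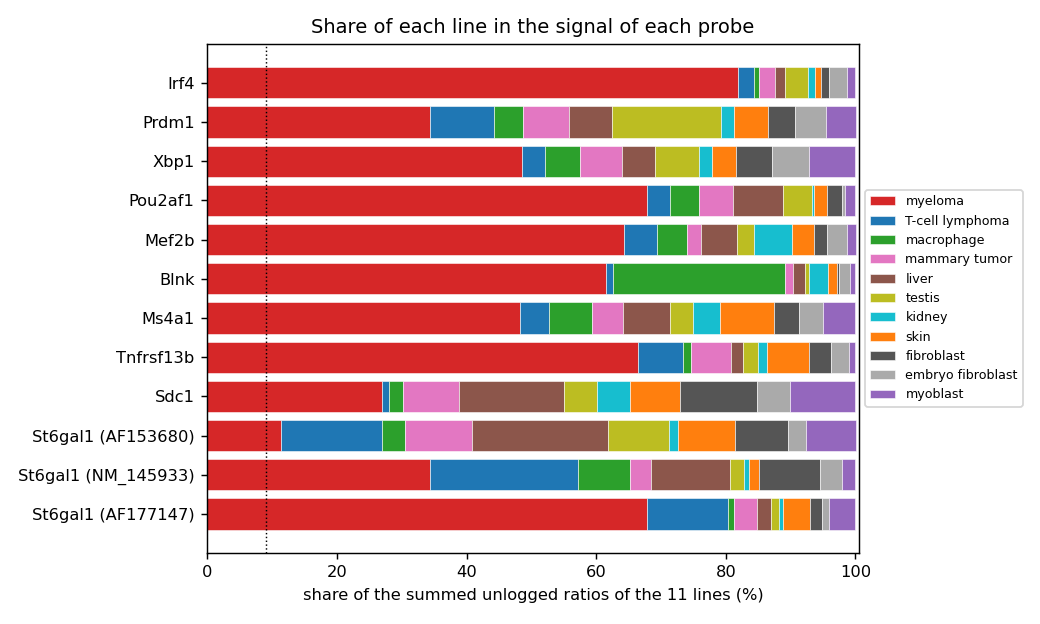
Share (%) of each line in the summed unlogged ratios of the 11 lines (horizontal axis) for each probe (vertical axis), and the dotted line marks the equal share of 9.09%. Myeloma holds from 11.3% (St6gal1, AF153680) to 81.9% (Irf4), and the large second block of Blnk is the macrophage line at 26.6%.

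Differences among the 10 lines other than myeloma were not themselves used to choose the genes. Each line was tested against the mean of the remaining 9. The errors of these tests include the gap between the myeloma arrays, so the choice on the myeloma contrast can reach them. That gap was 0.06 for Blnk and 0.03 for Sdc1. Its median was 0.40 over the member probes and 0.44 over all tested features. The member counts set against all features here are therefore not independent of the choice. Of 120 pairs of probe and line 4 were called with limma (3.33%), against 1.48% over all features and lines. The 4 calls were 1 each for Sdc1 and St6gal1 in the T-cell lymphoma line, and Blnk in the macrophage and fibroblast lines. At an unadjusted p under 0.05 there were 31 of 120 pairs, against 14.8% of all features and lines. The share of all features called was 5.82% for T-cell lymphoma, 4.49% for macrophage, 1.71% for embryo fibroblast, 1.09% for fibroblast, 0.930% for mammary tumor, 0.701% for myoblast, 0.0539% for testis, and 0.0135% each for kidney and liver. In the skin line limma called 0%, with 591 features at an unadjusted p under 0.05. With the replicate number as a block the 4 calls became 10, and without mammary tumor array 1 or 2 the sole call left in each case was Blnk in the macrophage line.

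Blnk rose in the macrophage line. Its log2 ratio of 1.54 stood against a mean of -3.02 in the remaining 9 lines, a difference of 4.55 ± 0.45 (SE, 23.5-fold, limma adjusted p = 0.00708, 1 array). The call held in 11 of 12 other settings, with adjusted p from 0.00242 to 0.139, and was lost when all arrays were scaled to the same spread. In the fibroblast line Blnk was -4.17 and -4.99 on the 2 arrays and fell by 2.25 ± 0.33 (adjusted p = 0.0398). That call held in 5 of 12 other settings (adjusted p from 0.012 to 0.541), and was lost without any 1 of mammary tumor array 1 or 2 (0.0998 and 0.0913), fibroblast array 1 or 2 (0.0900 and 0.143) or myeloma array 1 or 2 (0.0772 and 0.0803).

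St6gal1 rose in the T-cell lymphoma line on the NM_145933 probe, where 1.33 stood against -1.45, a difference of 2.77 ± 0.45 (SE, 6.83-fold, limma adjusted p = 0.0228). The AF177147 probe differed there by 2.85 ± 0.65 (adjusted p = 0.0563, and 0.0139 with the replicate block) and the AF153680 probe by 1.30 ± 0.56 (adjusted p = 0.212). Sdc1 fell in the same line, with -3.09 against -0.57, a difference of -2.52 ± 0.40 (SE, 5.74-fold lower, adjusted p = 0.0205). Each of these 2 calls held in 8 of 12 other settings. Both were lost with quantile normalization (0.0529 for St6gal1 and 0.0915 for Sdc1), with scaled arrays (0.180 and 0.166), without mammary tumor array 1 (0.0570 and 0.0519) and without mammary tumor array 2 (0.0599 and 0.0576). Sdc1 was low in the macrophage line as well (-2.29, difference -1.64 ± 0.40), at a limma adjusted p of 0.0772, which was 0.0268 with the replicate block. That block pairs arrays by a number judged from these same data, and lines with 1 array take no number in it. Its smaller p-values are a description and are not read as support.

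The kidney line was the lowest of the 10 for 6 of the 12 probes, those of Prdm1, Xbp1, Pou2af1 and all 3 of St6gal1. It was so for 6 probes after each array was centred on its median. The share of all features lowest in the kidney line was not computed, so nothing is read from this count. Pou2af1 differed there by -3.13 ± 0.48 and the NM_145933 probe of St6gal1 by -2.85 ± 0.45. These did not pass over all features (limma adjusted p = 0.0925 and 0.0968). With the replicate block they were 0.0302 and 0.0324, and the same limit of that block holds, since kidney had 1 array. The AF153680 probe of St6gal1 (-2.51 ± 0.56) went likewise from 0.133 to 0.0354, and Pou2af1 in the embryo fibroblast line (-2.19 ± 0.48) from 0.0762 to 0.0327. The whole kidney array was shifted by -0.26. In the liver line Pou2af1 (1.97 ± 0.48, adjusted p = 0.321), Sdc1 (1.66 ± 0.40, 0.315) and the AF153680 probe of St6gal1 (1.78 ± 0.56, 0.429) were above the remaining lines without passing. Prdm1 in the testis line was 0.56 against -1.20, a difference of 1.75 ± 0.46 that did not pass either (0.234).

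**Figure D4:**
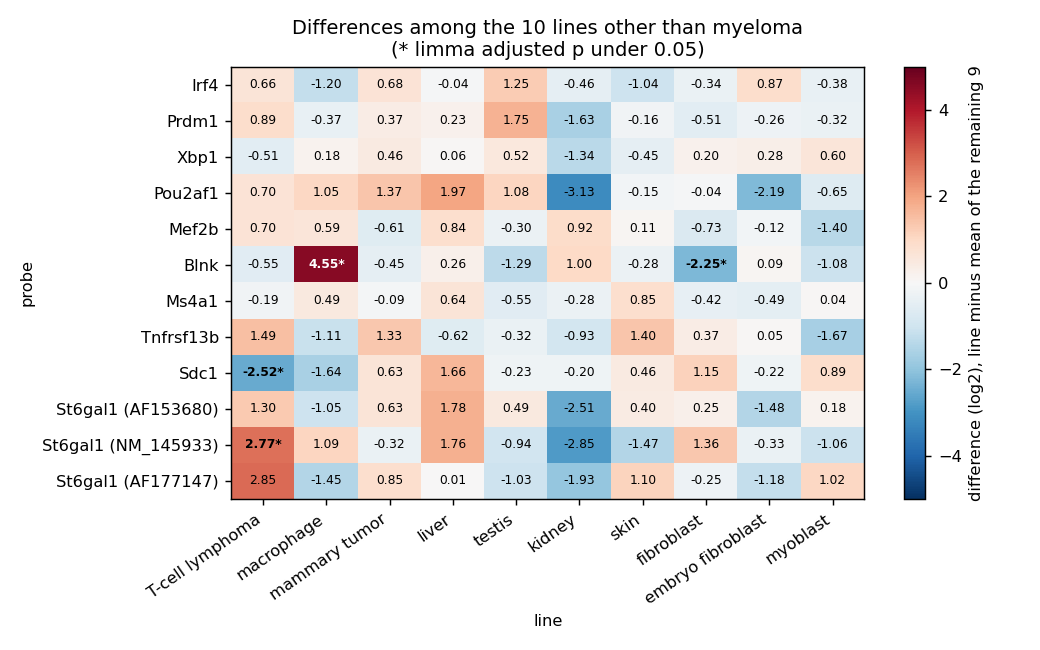
Difference on the log2 scale of each line from the mean of the remaining 9 (columns, without myeloma) for each probe (rows), and an asterisk marks a limma adjusted p under 0.05. The 4 marked cells are Blnk in macrophage (4.55) and fibroblast (-2.25), and Sdc1 (-2.52) and St6gal1 NM_145933 (2.77) in T-cell lymphoma.

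Without the myeloma line the 10 genes did not keep a common profile. Over all 11 lines the median Pearson r of the 45 gene pairs was 0.66, with a range from 0.10 to 0.88, which the choice of genes high in myeloma fixes in large part. Over the 10 other lines it was 0.04, from -0.70 (Xbp1 and Mef2b) to 0.71 (Pou2af1 and St6gal1), and 20 of 45 were below 0. With centred arrays it was -0.01. Irf4 and Prdm1 stood at 0.66 and Irf4 and Ms4a1 at -0.69. These are descriptions over line means, most from 1 array, that share the array's overall level.

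Other B-cell and plasma cell genes were counted from textbook lists without the 10 members, on gene means, in the myeloma line against the mean of the other 10 lines. Over all 6408 tested genes 3.62% were called higher and 3.75% lower, and the median difference was 0.08. At an unadjusted p under 0.05 limma had 11.5% higher and 11.9% lower. All list counts below use limma with Benjamini-Hochberg adjustment over all these genes.

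Of 27 B-cell receptor signalling genes 5 rose in the myeloma line and 0 fell, with a median difference of 0.58. At an unadjusted p under 0.05 there were 9 higher and 1 lower. The inhibitory adaptor gene Dok3 was 2.50 and 2.08 on the myeloma arrays against -1.95 elsewhere (4.25 ± 0.28, limma adjusted p = 0.00155). The kinase gene Btk, mutated in X-linked immunodeficiency, differed by 3.09 ± 0.47. The lipid phosphatase gene Inpp5d, at 0.78 and 0.66 on the myeloma arrays, differed by 2.71, and the GTPase gene Rac2, at 0.11 and 0.44, by 2.42. Syk, the kinase upstream of Blnk, differed by 2.30. The macrophage line had the highest other value for Dok3 (1.57), Btk (1.48), Inpp5d (1.83) and Rac2 (2.69), as it did for Blnk. For Inpp5d and Rac2 that value was above both myeloma arrays. The receptor chain gene Cd79a was 1.15 and -0.61 on the myeloma arrays (difference 0.12, adjusted p = 0.904), and the co-receptor gene Cd22 0.27 and 0.17 (0.32, adjusted p = 0.478). The 5 called genes became 1 without myeloma array 1 or array 2, and 8 with the replicate block, 7 higher and 1 lower.

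Of 29 B-lineage transcription regulators 8 were higher and 1 lower (median 0.18), and at an unadjusted p under 0.05 limma had 12 higher and 3 lower. Zbtb32, a repressor of activated lymphocytes, was 2.56 and 2.08 against -1.23 (3.55 ± 0.28, limma adjusted p = 0.00171). Zbtb20, which acts in plasma cell survival, differed by 3.14 ± 0.27, the basic helix-loop-helix gene Tcf4 by 3.10 and Mef2c, a relative of Mef2b, by 2.61. Mef2c was 1.74 and 1.77 on the myeloma arrays and 2.08 in the macrophage line. Also called higher, Ikzf1 (0.30 and 0.82) was below the T-cell lymphoma line (1.42) and Spi1 (0.46 and 0.47) below the macrophage line (1.45). For Zbtb32, Zbtb20, Tcf4, Pou2f2 and Bcl11a no other line mean reached either myeloma array. Pou2f2, which encodes an Oct factor that Pou2af1 binds, was among those higher (1.77 ± 0.26, limma adjusted p = 0.0122, mean of 2 probes). Bcl11a, a zinc finger factor needed early in the B lineage, differed by 1.61 ± 0.28 (adjusted p = 0.0197), and its call held in 8 of 13 other settings. Lef1, a T-cell and early B-cell factor, was lower (-1.69 ± 0.24, adjusted p = 0.0099). Pax5, the factor of B-cell commitment that Prdm1 represses, was 0.42 and -0.66 (difference 0.04, adjusted p = 0.960), and Ebf1, which acts with it in early B cells, differed by 0.74 (adjusted p = 0.202). The 9 called genes became 4 without myeloma array 1 and 2 without array 2.

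Of 29 B and plasma cell surface genes 12 were higher and 0 lower (median 0.62), and at an unadjusted p under 0.05 limma had 14 higher and 1 lower. The chemokine receptor gene Cxcr4, which holds plasma cells in bone marrow, was 2.41 and 2.57 against -2.39 (4.88 ± 0.58, limma adjusted p = 0.00573). Cd52 differed by 3.64, Ly6d, a surface marker of B-lineage progenitors, by 3.31 and Cd48 by 3.08. The lowest 2 of the called genes were Ccr10 (1.32 ± 0.29, adjusted p = 0.0441) and Cd40, the receptor for T-cell help (1.31 ± 0.27, adjusted p = 0.0354), and the call held in 6 of 13 other settings for Ccr10 and 7 of 13 for Cd40, each losing it with quantile or spread scaling and without either array of the mammary tumor or myeloma line. Cd40 was 0.95 and 0.71 on the myeloma arrays, below the macrophage line (1.03). Of the called genes not named above, Cd53 (1.19 and 1.11) was below the macrophage line (1.94), and Itgb7 (0.57 and 0.96) below the liver line (1.61). For Cxcr4, Cd52, Ly6d, Cd48 and Ccr10 no other line mean reached either myeloma array. Immunoglobulin chain genes were not analysed here. The 12 called genes became 6 without myeloma array 1 and 1 without array 2.

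Of 40 genes of the secretory pathway and unfolded protein response, the machinery that Xbp1 serves, 10 were higher and 3 lower (median 0.76). A difference above 0 was seen for 31, and at an unadjusted p under 0.05 limma had 20 higher and 4 lower. Hsp90b1, an endoplasmic reticulum chaperone, was 1.45 and 2.24 against -0.29 (2.14 ± 0.33, limma adjusted p = 0.0132). Sel1l, of the machinery that disposes of misfolded proteins, differed by 2.13, a call that held in 7 of 13 other settings and was lost without either array of the mammary tumor or myeloma line, with scaled arrays and when image runs were blocked. The chaperone cofactor gene Sdf2l1 differed by 2.02 and Serp1, a translocon protein, by 1.93. Sdf2l1 was 1.37 and 1.61 on the myeloma arrays and 1.48 in the T-cell lymphoma line, while Serp1 was at most 0.03 in another line. The lower genes were of the stress branch that acts through translation: Ddit3 (CHOP) was -2.63 and -2.42 against 0.15 (-2.68 ± 0.24, adjusted p = 0.00262), Atf4 was -1.36 and -1.62 against 0.38 (-1.87 ± 0.25, adjusted p = 0.00831) and Ppp1r15a (GADD34) differed by -1.46 (adjusted p = 0.0289). For these 3 the kidney line had the highest value, at 1.22, 1.47 and 2.33. Counts here moved with the arrays used: the 13 calls became 7 without either mammary tumor array, 2 without myeloma array 1, 1 without myeloma array 2, 8 with scaled arrays (5 higher and 3 lower) and 20 with the replicate block (17 higher and 3 lower).

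Of 48 measured relatives of the members 6 were higher and 1 lower (median 0.13). At an unadjusted p under 0.05 limma had 8 higher and 4 lower. That was 25% in either direction, near the 23.4% of all tested genes. Besides Mef2c and Pou2f2 these were St8sia4, a polysialyltransferase gene (2.02 ± 0.31), Irf5 (1.73), Irf2 (1.41) and Tnfrsf17 (1.52 ± 0.28, limma adjusted p = 0.0256), which encodes the plasma cell receptor BCMA, a relative of TACI. The macrophage line was above both myeloma arrays for St8sia4 (2.20 against 0.94 and 1.03) and Irf5 (1.59 against 0.63 and 1.40). Tnfrsf17 was 1.08 and 1.23 on the myeloma arrays, and its call held in 7 of 13 other settings. The lower gene was the tumor necrosis factor receptor gene Tnfrsf1a (-1.77 ± 0.37, adjusted p = 0.0388), and its call also held in 7 of 13. The other syndecans did not pass with Sdc1: Sdc2 differed by -2.15 ± 0.63 (adjusted p = 0.0950), Sdc3 by 0.75 and Sdc4 by -0.27. With centred arrays 6 were higher and 2 lower, with quantile normalization 5 and 0. The 7 calls became 3 without either mammary tumor array or with scaled arrays (3 higher and 0 lower), 2 without myeloma array 1, and 0 without myeloma array 2, and they became 12 without fibroblast array 1 (8 higher and 4 lower), 11 without fibroblast array 2 (8 and 3) and 13 with the replicate block (9 and 4).

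**Figure D5:**
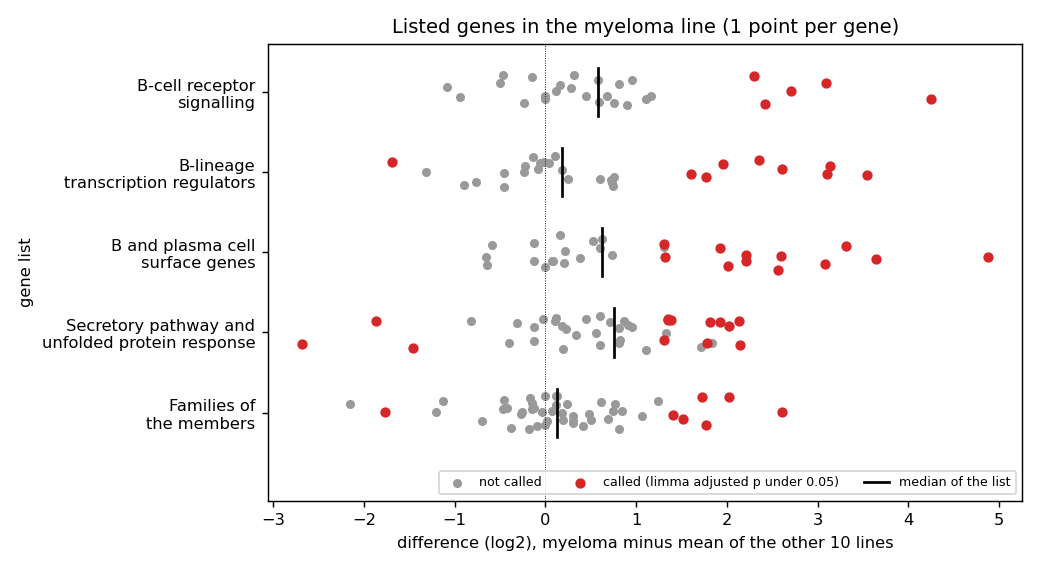
Difference on the log2 scale of the myeloma line from the mean of the other 10 lines (horizontal axis) for the genes of 5 lists (vertical axis), 1 point per gene with random vertical offset, called genes in red and the list median as a bar. The list medians lie between 0.13 and 0.76, and the lowest red points of the secretory list are Ddit3 (-2.68) and Atf4 (-1.87).

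Of all other features, those most like the standardised mean profile of the 10 genes over the 11 line means were Dcaf8l (Pearson r = 0.971), Ly6d (0.954), the proliferation antigen gene Mki67 (0.943), the protease gene Ctse (0.942), an unnamed feature, probe number 7670 (0.935), and the retinoic acid synthesis gene Aldh1a2 (0.930). That mean profile stood at 2.34 in the myeloma line and between -0.78 (kidney) and 0.15 (liver) in the others. The choice of genes fixes this in large part, so the order mostly finds features high in the myeloma line. Without the myeloma line the r of these features lay between 0.456 and 0.764. They were picked with that line included and on arrays that were not centred, so these values are a description. Mki67 was 1.42 and 1.67 on the myeloma arrays and at most 0.20 (mammary tumor line) in another line. Aldh1a2 was 2.69 and 0.98 on the myeloma arrays, a gap wider than that of any of the 12 probes (at most 0.88).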

How the data were processed

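Total RNA of 11 mouse cell lines was compared with a common pool on 14 two-colour spotted arrays. The authors deposited 1 ratio per spot, treated here as log2. The sources used here do not say how background was corrected or how spots were normalized or filtered. The unlogged ratio averaged over lines should lie near 1 if the lines make up the pool, and its median over features was 1.00 for base 2 and line over pool. A turned sign gave 1.20, base e 1.07 and base 10 gave 1.87. Base 2 was assumed, and centring stayed unknown.

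The 80 Gapdh spots were averaged, which left 7601 features, of which 7423 had a value in all 11 lines and were tested. Of 7680 probes 6835 had 1 gene symbol, 4 had several and 841 were not listed; symbols were updated through RefSeq (GRCm38.p6) for 6809. All columns were used. One limma 3.58.1 fit (R 4.3.3; lmFit, eBayes, two-sided) covered all arrays with a mean per line, 3 residual degrees of freedom and 3.75 from moderation. Lines with 1 array borrowed the spread of the pairs. Errors are standard errors of the fit, and a call is a Benjamini-Hochberg adjusted p under 0.05 over all features of a comparison. The number of arrays limits the precision. The fit was also run on simulated data with independent noise on each array. That run does not cover arrays that deviate together, so it does not vouch for the p-values here. Figures used matplotlib 3.10.9.

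Members and lists were chosen with earlier results of these data known. Of each list the 4 highest and 2 lowest called genes were to be named, with up to 4 B-cell genes not called, and the 6 features most like the members. Ikzf1, Spi1, Ppp1r15a, Tnfrsf17, Sdc2, Sdc3 and Sdc4 were named after their values were seen. The alternatives were centring, quantile and spread scaling, each repeat array left out, image run and replicate number as blocks, features on all 14 arrays, and a comparison with the 8 lines that are not of blood cells. The titles number the arrays of 3 lines. Deviations of same-numbered arrays from their line means correlated at 0.536, 0.376 and 0.331, so these numbers were taken to pair the arrays, from the data and not from a label. In the paired fit the lines with 1 array took no number, so their p-values under it may be too small.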

Additional observations from a re-analysis of the deposited data

How the results depend on the processing

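All 12 member differences from the other 10 lines kept their sign in the settings run, and 6 values for 5 probes moved by more than the SD between repeat arrays: Pou2af1 (3.95) and the NM_145933 probe of St6gal1 (2.48) within the image run, Mef2b without a myeloma array (4.74 and 3.88), and Blnk (5.76) and Sdc1 (1.75) against the 8 lines that are not of blood cells. The counts moved more, and the cause was not tested.

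With the replicate block (paired by number) features called in the myeloma comparison went from 497 to 1105, calls over the 10 other comparisons from 1100 to 4246, member calls there from 4 to 10, and called genes to 8 for receptor signalling, 20 for the secretory list and 13 for the members' relatives. All 4 member calls held under it. With scaled arrays all 4 were lost, and the 1 member call there was of another pair of probe and line. The SD over probes was widest on the T-cell lymphoma (1.161) and macrophage (1.137) arrays. Calls over the 10 comparisons were then 266, secretory genes 8 and relatives 3. With quantile normalization member calls were 2. Leaving out 1 repeat array gave 41 to 730 features in the myeloma comparison, 1 to 5 member calls, 362 to 1694 calls over the 10 comparisons, and 1 to 6 receptor, 2 to 9 regulator, 1 to 12 surface, 1 to 17 secretory and 0 to 12 related genes. Signal over background was not analysed here.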

Other observations

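The feature that differed most between the myeloma line and the other 10 lines had no gene name here. Probe number 7670 was 2.02 and 3.23 on the myeloma arrays against a mean of -6.47 elsewhere, a difference of 9.10 ± 0.52 (limma adjusted p = 0.00132), and its highest other line was liver at -4.65. Next in that order came Gas6 (8.14), Irf4 (5.67), Cntn3 (5.34), Blnk (5.31), the AF177147 probe of St6gal1 (4.99), Pou2af1 (4.91) and Cxcr4 (4.88), so 4 of the 8 widest differences belonged to probes of the genes described above, which were chosen on this contrast.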
